A study of Mus musculus with 2 samples.

Results

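The genes Mir214, Mir199a-2, Mir199b and Mir199a-1 encode 2 families of microRNAs (miRNAs) that lie inside the dynamin genes of the mouse, and their levels were read from small RNA libraries of the embryonic limb. They were taken by symbol, and 4 of the 1973 miRNA genes in the count tables are members. All 4 had at least 10 sense counts in both libraries, the minimum for calling a gene detected, which 340 genes passed. The libraries came from limb tissue of B6NCrl mouse embryos at 15.5 days of age. The limbs of 78 embryos were pooled for replicate 1 and those of 62 embryos for replicate 2, and each pool held both sexes, all labelled healthy. There was 1 group of 2 biological replicates, so levels are described and the 2 pools are compared with each other. Sense counts of miRNA genes totalled 4263630 in replicate 1 and 5151214 in replicate 2. Levels are sense counts divided by the total of the library and multiplied by 1000000 (CPM), with the SD over n = 2.

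A miRNA is cut from a hairpin precursor and guides silencing proteins to messenger RNAs, mostly through its seed, the bases from position 2 to position 8. Each hairpin can give a mature RNA from its 5p arm and another from its 3p arm. Mir199a-2 and Mir214 are carried by Dnm3os, a long non-coding RNA of mesenchyme that is induced by the transcription factor Twist1, and loss of Dnm3os in mice disturbs growth of the skeleton. miR-214 is known as a repressor of Ezh2 in muscle progenitors and as an inhibitor of osteoblast activity, and miR-199a-3p represses mTOR and the receptor Met.

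The mature arms are shown because they decide which reads can be assigned to a member. They are RefSeq sequences on GRCm38.p6, in which all 4 members matched by symbol, printed 5′ to 3′ with the seed in capitals.
miR-199a-5p of Mir199a-1 and Mir199a-2: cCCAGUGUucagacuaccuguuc
5p stretch of Mir199b: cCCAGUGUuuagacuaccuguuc
miR-199a-3p of Mir199a-1 and Mir199a-2, and miR-199b-3p of Mir199b: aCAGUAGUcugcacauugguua
miR-214-5p: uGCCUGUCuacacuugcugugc
miR-214-3p: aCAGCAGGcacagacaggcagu
The 5p stretch of Mir199b is not an arm listed in the RefSeq table used here. It is the stretch of the Mir199b hairpin with the fewest differences from miR-199a-5p, and it differs by C10U (miR-199a-5p first, positions counted from 1 at the 5′ end). The 3 Mir199 genes therefore share a seed on the 5p side and another on the 3p side, and neither was found in a mature miRNA of any other gene of the table. The seed of miR-214-3p was found in 1 other gene, Mir761, and that of miR-214-5p in none.
miR-761: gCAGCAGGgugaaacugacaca
Mir761 had 0 sense counts in both libraries, which allows up to 0.704 CPM in replicate 1 and 0.582 CPM in replicate 2 (3 counts of each total).

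Mir214 shares no mature arm with another hairpin, whereas the arms of Mir199a-1 and Mir199a-2 are held by other members. The exact miR-199a-5p sequence lies in 2 hairpins, those of Mir199a-1 and Mir199a-2, and the exact 3p sequence lies in 3, those of all the Mir199 genes. The 5p stretch of Mir199b lies in 1. Reads with several alignments were totalled on a line of their own, 29.4% of all reads in replicate 1 and 29.7% in replicate 2, and entered no gene. Reads that lie wholly inside the shared sequence are therefore in none of the Mir199 values, and how many of them there were was not analysed here. The hairpins follow in full, with the arms (and the 5p stretch of Mir199b) in capitals, so that the bases around the shared parts can be compared.
Mir199a-1: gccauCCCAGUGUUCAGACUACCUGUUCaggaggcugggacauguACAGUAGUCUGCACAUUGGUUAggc
Mir199a-2: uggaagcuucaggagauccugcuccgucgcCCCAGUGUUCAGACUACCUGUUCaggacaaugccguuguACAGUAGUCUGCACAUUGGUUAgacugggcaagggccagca
Mir199b: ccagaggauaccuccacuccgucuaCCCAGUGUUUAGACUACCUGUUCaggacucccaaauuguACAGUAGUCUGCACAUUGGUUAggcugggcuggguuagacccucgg
Mir214: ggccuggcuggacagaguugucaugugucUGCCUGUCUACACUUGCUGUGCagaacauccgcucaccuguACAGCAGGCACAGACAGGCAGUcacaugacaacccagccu

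Around the 5p arm, the hairpins of Mir199a-1 and Mir199a-2 have 27 bases in common, which begin exactly at the first base of the arm and run 4 bases past its end. Around the 3p arm they have 26 bases in common, from 3 bases before the arm to 1 base past it. Mir199a-1 and Mir199b have 28 bases in common there, up to the end of the annotated Mir199a-1 hairpin. With a window of 22 bases moved along each hairpin, 13 of 49 windows of Mir199a-1, 12 of 89 of Mir199a-2 and 8 of 89 of Mir199b were also in another miRNA hairpin, on either strand. For Mir214 this was 0 of 89. On the 5p side of both Mir199a genes, a window was shared when it began at the first base of the arm or up to 5 bases further in, and it was not shared when it began 1 base earlier. On the 3p side of Mir199a-2, windows beginning from 4 bases before the arm to 1 base after its first base were shared. This search covered the 1005 hairpins of the RefSeq table and exact matches, not the rest of the genome.

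**Figure D1:**
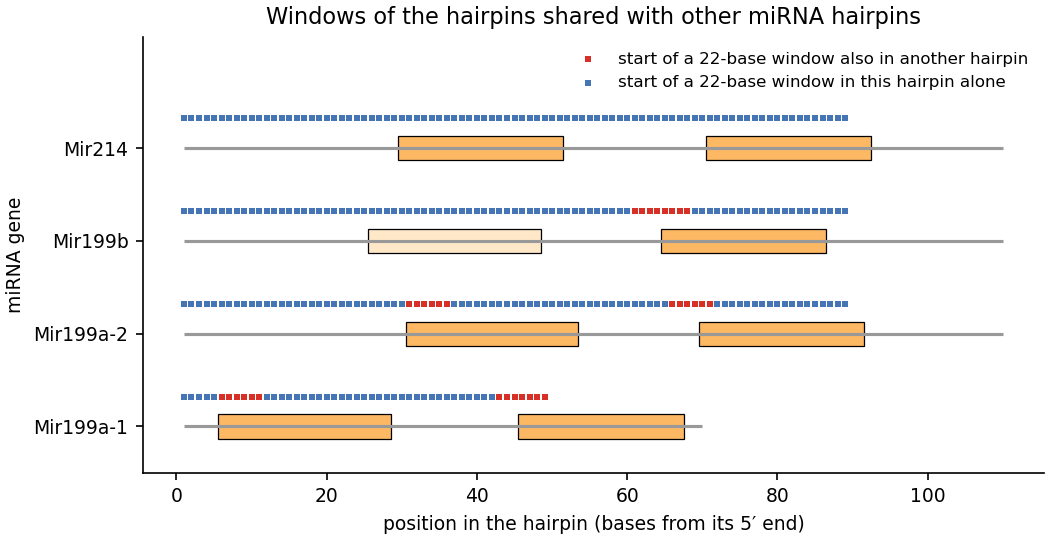
Position in the hairpin in bases (x axis) for each member (y axis), with mature arms as boxes (the pale box is the 5p stretch of Mir199b) and a square at the start of each window of 22 bases. Squares of shared windows sit at the start of both arms of Mir199a-1 and Mir199a-2 and of the 3p arm of Mir199b, and Mir214 has none.

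By position, none of the members is transcribed in the direction of the dynamin gene it lies in. On GRCm38, the assembly also called mm10, Mir199a-2 (ENSMUSG00000070126.1) spans 162217814 to 162217923 and Mir214 (ENSMUSG00000065516.1) 162223368 to 162223477 on the plus strand of chromosome 1. Both lie in an exon of Dnm3os (162217623 to 162225550, plus strand), with 5444 bases between them. Opposite them is intron 14 of the transcript Dnm3-201, on the minus strand. Dnm3 encodes a dynamin, a GTPase that pinches off vesicles. Mir199b (ENSMUSG00000092807.1, chromosome 2, 32318460 to 32318569, plus strand) lies opposite intron 15 of the transcript Dnm1-201. Mir199a-1 (ENSMUSG00000065547.1, chromosome 9, 21496495 to 21496564, minus strand) lies opposite intron 15 of Dnm2-201, and no exon of Dnm1, Dnm2 or Dnm3 overlapped a member on the other strand.

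**Figure D2:**
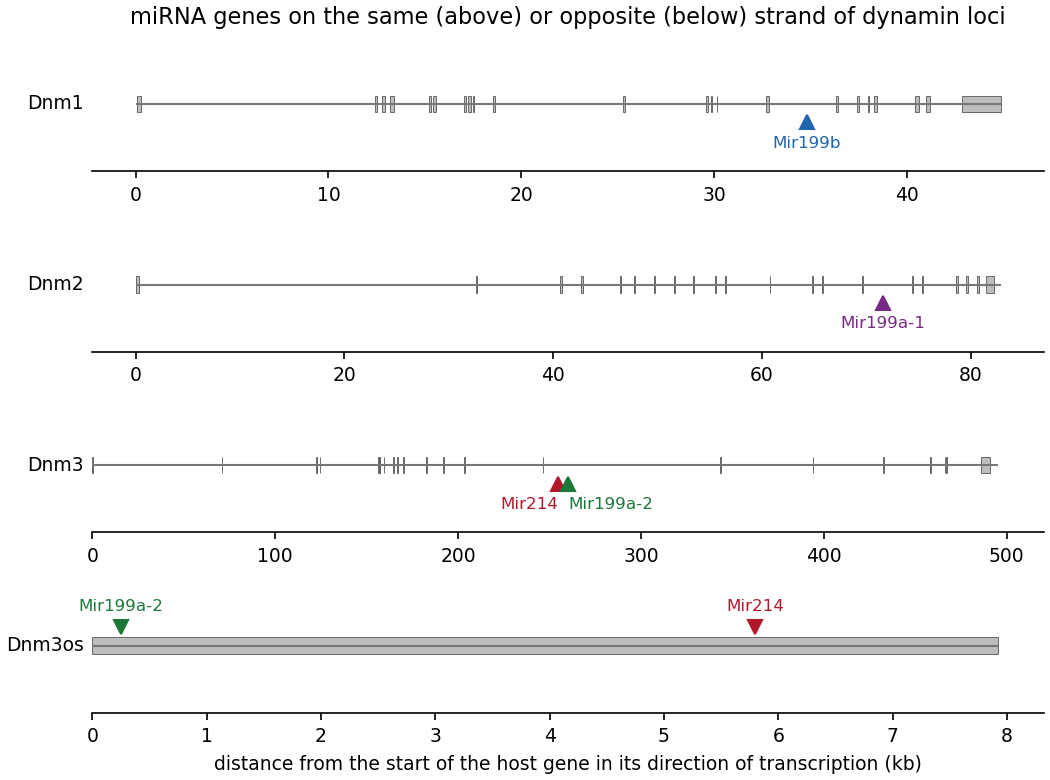
Exons (grey boxes) of the transcript with the longest exon sequence of each host gene, by distance in kb from the gene's start in its direction of transcription, with the miRNA genes as triangles above (same strand) or below (opposite strand). Mir199b, Mir199a-1, Mir214 and Mir199a-2 point against introns of Dnm1, Dnm2 and Dnm3, and Mir199a-2 and Mir214 lie in the exon of Dnm3os.

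Mir214 was the leading member by assigned reads. It had 18755 CPM in replicate 1 (79966 counts, Wilson 95% interval 18627 to 18885) and 21793 CPM in replicate 2 (112262 counts, 21668 to 21920), a mean of 20274 ± 2148 CPM (SD, n = 2). In both libraries this was the place 13 among all miRNA genes, and 2.03% ± 0.215 of the sense counts. The libraries did not overlap, with replicate 2 the higher. Intervals and floors cover counting error only, since no molecular identifiers are known to have been used.

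The 3 Mir199 genes followed far below Mir214 in assigned reads. Reads wholly inside their shared arms are in none of these values, so the order does not give that of the mature RNAs. Mir199b had 1272 CPM in replicate 1 (5425 counts, interval 1239 to 1307) and 1463 CPM in replicate 2 (7534 counts, 1430 to 1496), with a mean of 1367 ± 134 CPM (SD, n = 2) and place 85 by mean. Mir199a-2 had 299 CPM (1276 counts, 283 to 316) and 335 CPM (1727 counts, 320 to 351), a mean of 317 ± 25.4 CPM and place 140. Mir199a-1 had 23.7 CPM (101 counts, 19.5 to 28.8) and 30.7 CPM (158 counts, 26.2 to 35.8), a mean of 27.2 ± 4.94 CPM and place 243. In each of the 3 genes replicate 2 was again the higher, and the ranges of different members did not overlap. Together they reached 1595 CPM in replicate 1 and 1829 CPM in replicate 2. The order of the members was the same when levels were divided by the length of the annotated gene.

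**Figure D3:**
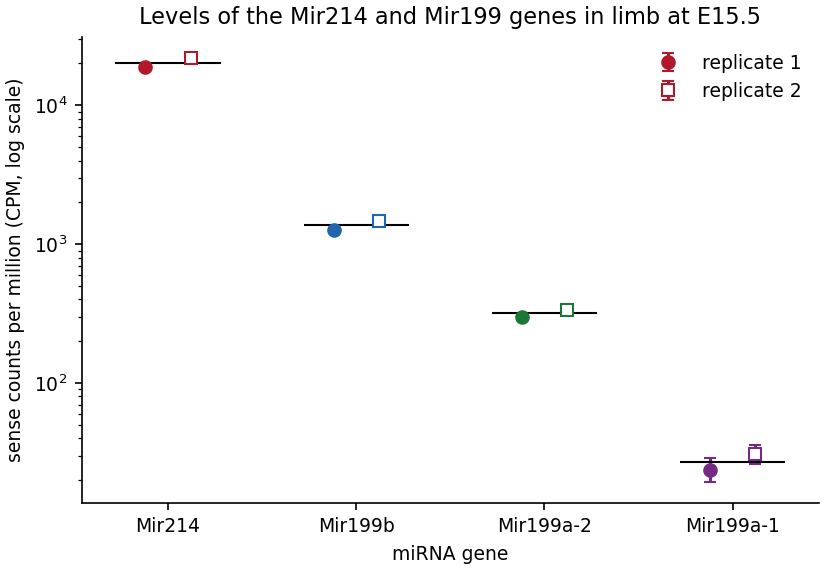
Level in CPM on a log scale for the 4 members, with replicate 1 as filled circles, replicate 2 as open squares, Wilson 95% intervals as error bars and the mean as a line. Levels of assigned reads step down from Mir214 (20274 CPM) to Mir199b (1367 CPM), Mir199a-2 (317 CPM) and Mir199a-1 (27.2 CPM), with replicate 2 above replicate 1 in each.

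Although Mir199a-2 and Mir214 lie in the same Dnm3os transcript, their counts differed widely. Mir214 had 62.7 times the counts of Mir199a-2 in replicate 1 (Wilson 95% interval 59.3 to 66.2) and 65.0 times in replicate 2 (62.0 to 68.2). Mir214 exceeded Mir199b by 14.7 times (14.3 to 15.2) and 14.9 times (14.6 to 15.3). Mir199b exceeded Mir199a-2 by 4.25 and 4.36 times, and Mir199a-2 exceeded Mir199a-1 by 12.6 and 10.9 times. For each of these pairs the intervals of the 2 libraries overlapped. Since the arms of the Mir199a genes are shared and those of Mir214 are not, the ratios are of assigned reads and do not give the ratio of the mature RNAs.

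Of the assigned counts of the 4 members, Mir214 took 92.2% ± 0.0697 (SD, n = 2), with 92.2% in replicate 1 (of 86768 counts, interval 92.0 to 92.3) and 92.3% in replicate 2 (of 121681 counts, 92.1 to 92.4). Reads wholly inside the shared Mir199 arms are not among them. Mir199b took 6.25% and 6.19%, Mir199a-2 took 1.47% and 1.42%, and Mir199a-1 took 0.116% and 0.130%. The 95% intervals of the 2 libraries overlapped for each member. Overlap of intervals is not a test, and a difference in these shares between the pools was not tested.

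Nearly no assigned reads were counted on the strand of the dynamin genes. Antisense counts were 0 for Mir199a-1 and Mir199a-2 in both libraries and 0 for Mir214 and Mir199b in replicate 1. In replicate 2 Mir214 and Mir199b had 1 antisense count each, 0.000891% and 0.0133% of their counts. For Mir214 in replicate 1, the count of 0 allows a share of up to 0.00375%, and for Mir199a-1 of up to 2.97%. Reads with several alignments entered no gene on either strand, so for the Mir199 genes these counts and shares leave out reads wholly inside the shared arms. Another gene annotated as a miRNA, Gm23363, lies in Dnm1 on the strand of Mir199b, and had 3 sense counts in replicate 1 and 0 in replicate 2. It was the only miRNA gene of the tables, beside the members, that overlapped Dnm1, Dnm2, Dnm3 or Dnm3os.

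The 4 members together were a larger part of the library of replicate 2. They held 2.04% of the sense counts of replicate 1 and 2.36% of replicate 2, a mean of 2.20% ± 0.231 (SD, n = 2). The libraries were compared gene by gene with an exact binomial test (two-sided, conditional on the library totals), with p-values adjusted by Benjamini-Hochberg over the 340 detected genes, with a threshold of 0.05. This test compares 2 libraries with counting noise and not conditions, because 1 group with 2 libraries leaves no spread for a model between groups. Of the 4 members, 3 passed and were higher in replicate 2, and 1 did not pass. Over all detected genes 50.9% passed, 25.3% higher and 25.6% lower in replicate 2. The share differed with depth: 78.3% of the 189 genes with a summed count of 1000 or more, where these 3 members lie, passed in either direction, and 16.6% of the 151 genes below it, where Mir199a-1 lies.

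The log2 ratio of replicate 2 over replicate 1 was 0.22 for Mir214 (exact 95% interval 0.20 to 0.23; adjusted p = 3.78e-231, exact binomial test), or 1.16-fold. Mir199b had 0.20 (0.15 to 0.25; adjusted p = 1.79e-14, exact binomial test) and Mir199a-2 had 0.16 (0.059 to 0.27; adjusted p = 0.00457, exact binomial test). The value of Mir199a-1 was 0.37 (0.0034 to 0.75; adjusted p = 0.0853, exact binomial test), which did not pass the threshold with 101 and 158 counts behind it. The 4 intervals overlapped, and a difference between the members' ratios was not tested. The median of the members was 0.21, against 0.02 over all detected genes. The SD of the log2 ratio over all detected genes was 0.38, and 73 of the 340 genes lay within 0.1 of the log2 ratio of Mir214, itself included.

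**Figure D4:**
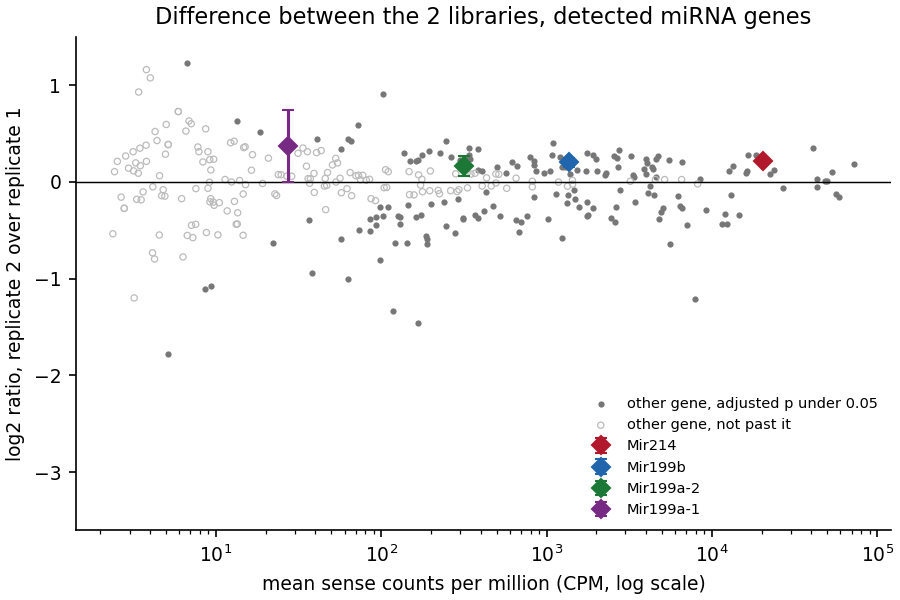
Log2 ratio of replicate 2 over replicate 1 (y axis) against mean CPM on a log scale (x axis) for the 340 detected miRNA genes. Filled points are genes past the adjusted threshold, open points are not, and the members are diamonds with exact 95% intervals, at 0.22 for Mir214, 0.20 for Mir199b, 0.16 for Mir199a-2 and 0.37 for Mir199a-1.

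Among other miRNAs known from mesenchyme, fibroblasts and smooth muscle, 0 detected genes were called higher in replicate 2. The list had 12 genes, of which 11 had a row and 8 were detected, and Mir497a was not analysed here. In the exact binomial test, 0 of the 8 passed the threshold as higher in replicate 2 (1, Mir21a, without adjustment), 4 passed as lower and 4 did not pass. For comparison, 25.3% of all detected genes passed as higher and 25.6% as lower. Among genes with a summed count of 1000 or more, as most of the 8 have, 78.3% passed in either direction. Whether the list departs from these shares was not tested. The median log2 ratio of the 8 was -0.12, against 0.02 over all detected genes. Mir143, which acts in smooth muscle cells, had 10149 CPM in replicate 1 and 8295 CPM in replicate 2, a log2 ratio of -0.29. Mir22, from a non-coding RNA expressed in many tissues, had 4669 and 4243 CPM, a log2 ratio of -0.14, and passed as lower. Mir21a, a miRNA raised in activated fibroblasts, had 6507 and 6618 CPM (adjusted p = 0.0695, exact binomial test). Mir195a, of the miR-15 and miR-16 family, had 480 and 508 CPM (adjusted p = 0.0980, exact binomial test). The other 2 that were lower were Mir145a and Mir29a, with log2 ratios of -0.36 each, named after their values were seen. Mir214 alone was close to this whole list, which held 2.24% of the sense counts in replicate 1 and 2.02% in replicate 2. The list total is of assigned reads, and shared arms among its genes below the detection minimum were not analysed here. Nor were those of Mir143 and Mir145a, for which no arm was found under their symbols in the RefSeq table.

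**Figure D5:**
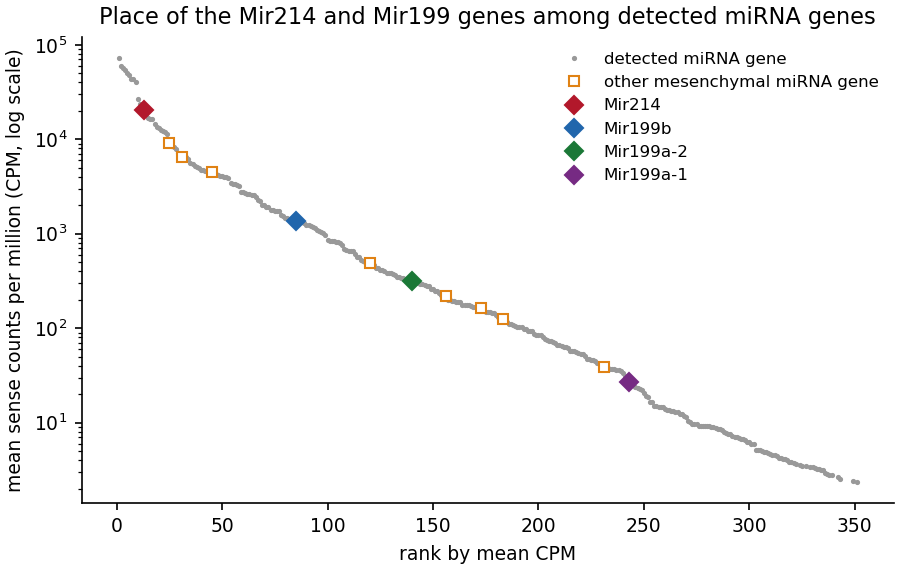
Mean CPM on a log scale (y axis) against rank by mean CPM (x axis) for the detected miRNA genes, with the members as diamonds and the other mesenchymal miRNA genes as open squares. Mir214 at place 13 stands above Mir143, the highest of the open squares, while Mir199b, Mir199a-2 and Mir199a-1 stand at places 85, 140 and 243. All places are by assigned reads.

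In the order of mean CPM, Mir214 kept its place between its nearest neighbours in each library, whereas most neighbours of the 3 Mir199 genes changed sides between the libraries. Directly above Mir214 were Mir26b with 23799 ± 1491 CPM, of a phosphatase gene intron, and Mir126a, a miRNA of endothelium, with 22336 ± 903 CPM. Directly below were Mir130a with 18612 ± 2544 CPM and Mir99b with 16618 ± 2238 CPM (SD, n = 2 for each). Over both libraries the range of Mir214 overlapped those of Mir126a and Mir130a, and not those of Mir26b and Mir99b. Within each library, Mir126a, Mir214 and Mir130a held places 12, 13 and 14, and all 4 neighbours of Mir214 were on the same side of it in both. Mir199b stood between Mir28a (1392 ± 56.5 CPM) and Mir134 (1351 ± 88.8 CPM), with Mir181a-1 above and Mir148a below these. Mir199a-2 stood between Mir186 (331 ± 14.6 CPM) and Mir329 (313 ± 58.8 CPM), with the erythroid Mir451a above and Mir450b below. Mir199a-1 stood between Mir3074-1 (28.7 ± 0.826 CPM) and Mir760 (26.8 ± 0.780 CPM), with Mir20b above and Mir153 below. The ranges of all 4 neighbours overlapped that of the member for Mir199b, for Mir199a-2 and for Mir199a-1. On the same side in both libraries were 0 of 4 neighbours of Mir199b, 1 of 4 of Mir199a-2 (Mir186, above it) and 1 of 4 of Mir199a-1 (Mir20b, above it). With 2 libraries of 1 group, no likeness of pattern over samples was computed.

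Sharing of every arm was rare among the detected miRNA genes, but detection itself rests on assigned reads. A gene with every arm shared loses reads that lie wholly inside those arms, and may miss the minimum for that reason. The share over all miRNA genes was not analysed here, so the rarity holds for detected genes only. Of 295 detected genes with annotated arms and a single hairpin in the RefSeq table, 7 had every annotated arm in another hairpin, and 3 of the 7 were Mir199b, Mir199a-2 and Mir199a-1. Mir199b was the highest of these 7, which had a median of 263 CPM. Some but not all arms were shared in 34 genes, with a median of 46.4 CPM, and no arm was shared in 254 genes, Mir214 among them, with a median of 192 CPM. For Mir199b the table lists the 3p arm alone, and the 5p stretch printed above is in no other hairpin.

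The limb label was checked against marker miRNAs, and those of cartilage, epithelium, vessels and muscle were present. Cartilage markers (Mir140 and Mir455) held 4.76% and 4.56% of the sense counts of replicates 1 and 2, the 7 epithelial markers 9.62% and 10.8%, and endothelial Mir126a 2.17% and 2.30%. The 4 skeletal muscle markers held 1.15% and 0.499%, the lower share in the replicate where the members were higher, and 4 of 4 passed as lower in replicate 2. All 7 epithelial markers and Mir126a passed as higher in replicate 2, and 2 of 2 cartilage markers passed as lower. Of the leukocyte and of the neural markers, 1 each passed as higher. Over all detected genes 25.3% passed as higher and 25.6% as lower. The part of these marker differences in the members' ratios was not tested. Erythroid, leukocyte and neural markers were each under 0.07% in both libraries. Mir124a-1 and Mir9-2 of the neural list had 0 counts, and Mir9-1 of that list had no row. Reads with several alignments entered no gene, and sharing of arms was not analysed here for Mir124a-1, Mir9-1 and Mir9-2. The neural share and the counts of 0 therefore do not show that the mature RNAs were low or absent. In whole tissue, more cells of a type and more RNA per cell cannot be told apart.

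As the RNA that carries Mir199a-2 and Mir214, Dnm3os is shown at its start, with its matches to CANNTG, the E-box letters bound by Twist1 and many other factors, in capitals. It spans 250 bases before to 50 after the RefSeq start on GRCm38.p6, chr1:162217373-162217672, plus strand.
Dnm3os: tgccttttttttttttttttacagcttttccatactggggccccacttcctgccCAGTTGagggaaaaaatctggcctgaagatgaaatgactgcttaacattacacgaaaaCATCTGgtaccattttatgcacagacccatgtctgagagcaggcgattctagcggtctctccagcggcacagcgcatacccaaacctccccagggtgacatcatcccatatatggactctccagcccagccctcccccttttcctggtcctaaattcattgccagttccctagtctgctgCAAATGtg
There were 3 matches, CAGTTG at -196, CATCTG at -138 and CAAATG at 42 bases from the start. CANNTG reads the same on both strands, and 72.3% of the 32851 promoter windows of this length in the table hold it. CATCTG on either strand, which is one form of CANNTG, was in 17.2% of them. These are matches of letters, no binding was measured in these libraries, and nothing on the ratios between the pools follows from them.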

How the data were processed

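MicroRNA-seq of 2 limb libraries (total RNA, fragments below 30 nt, per the labels) was deposited as counts. Per the deposited README the count tables were made by the authors on mm10 with annotation M4; the aligner, counter and trimming are not given in the sources used here. The tables have no header. From the values, the first count column is the sum of the others for every gene, and they were read as both strands, sense and antisense. Lines for unmapped, multiply aligned and unassigned reads entered no total.

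Symbols and positions came from GENCODE M21 (1894 of 1973 identifiers matched). CPM, Wilson and exact 95% intervals and binomial tests were computed in Python 3.11.15 with scipy 1.17.1 and statsmodels 0.14.6. The code of the test was checked on counts simulated with Poisson noise alone. That is the noise the test assumes, so the check does not bear on spread between pools beyond counting noise. Counts of the detected genes differed between the 2 libraries beyond sampling noise (chi-square 57050, 339 degrees of freedom), and they were treated as separate replicates. Alternatives were edgeR 4.0.16 TMM and DESeq2 1.42.0 size factors (R 4.3.3), other totals, strands and minimums. Members and lists were chosen with earlier results of these data known. Named genes are the members, miRNA genes overlapping dynamin loci or sharing a seed, the 2 neighbours on each side by mean CPM, and the 4 highest of the mesenchymal list.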

Additional observations from a re-analysis of the deposited data

How the results depend on the processing

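With all reads of the library as the denominator, mean levels were 9524 CPM for Mir214, 642 CPM for Mir199b, 149 CPM for Mir199a-2 and 12.8 CPM for Mir199a-1, lower than the main values by construction, as reads outside miRNA genes enter the total. Levels under TMM, DESeq2 size factors, counts irrespective of strand and totals without the muscle list (added after seeing the data, and by construction the same shift for every gene) moved by less than 1 SD. Every alternative run kept the 4 log2 ratios above 0 and 3 members past the threshold. A change of the minimum count cannot alter a log2 ratio, and a change of scaling shifts every gene by the same amount. That shift was 0.033 with all reads as the denominator, against 0.16 for the lowest member ratio. The kept signs are thus little of a check. The number of detected genes past the threshold was between 167 and 184, against 173. With no minimum count 24.6% of 694 genes passed, and with at least 100 counts 67.6% of 247. No scaling moved the median log2 ratio of all genes by over 0.1. Leaving out 1 replicate gave 18755 to 21793 CPM for Mir214 and 23.7 to 30.7 CPM for Mir199a-1. No paired analysis was possible because there is 1 group. Depth limits Mir199a-1, whose ratio rests on few counts.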
